A study of Mus musculus with 20 samples.

Results

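Kupffer cells are the macrophages that live in the liver sinusoids, where they take up particles, dying cells and complement-coated material from the blood. The genes described here are 10 that mark these cells or macrophages in general, chosen by name: Clec4f, Timd4, Vsig4, Cd5l, Marco, Csf1r, C1qa, C1qb, C1qc and Cd68. Each name matched 1 of the 48440 genes in the liver count table, and all 10 passed the filter on low counts, which left 16071 genes to test. The livers came from 20 wild-type female C57BL/6 mice, 8 weeks old when the experiments began, 5 in each of 4 groups, which crossed the antibody given (Isotype or αACBP) with the drinking water (Vehicle or CORT). CORT is corticosterone, the main glucocorticoid of mice, given at 100 µg per ml of drinking water for 5 weeks, and the vehicle groups drank water with the solvent. αACBP is a monoclonal antibody against acyl-CoA-binding protein (ACBP, also called DBI), injected at 5 mg per kg 2 times per week, and the isotype groups received an IgG2a control antibody on the same schedule. Every group therefore received an antibody, and no group was left without injections. The study asked whether neutralizing ACBP changes the response of the body to an excess of glucocorticoid.

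Under the isotype antibody 7 of the 10 genes fell in CORT-treated livers, and under CORT 3 of the 10 rose with αACBP. A call required a log2 fold change of 1 or more in either direction and, in edgeR's quasi-likelihood test, a p of no more than 0.05 after Benjamini-Hochberg adjustment. Over all genes tested, 1.43% were called lower in the first comparison and 0.504% higher in the second. C1qb, Cd68 and Marco passed in neither. All 10 genes had their lowest group mean in Isotype + CORT, and the lowest of the 20 livers was an Isotype + CORT liver for each of the 10. The RNA was that of whole liver, and levels are shares of its counts. Fewer macrophages, less RNA per macrophage and more RNA from other cells therefore cannot be told apart.

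The 10 genes have different roles in the same cells. Clec4f is a galactose-binding C-type lectin of rodent Kupffer cells, Timd4 a receptor for phosphatidylserine on dying cells, Vsig4 a receptor for complement C3 fragments and Cd5l a secreted scavenger protein. Marco is a class A scavenger receptor and Cd68 a glycoprotein of macrophage endosomes and lysosomes. Csf1r is the receptor for the growth factors CSF1 and IL-34, on which macrophages depend. C1qa, C1qb and C1qc encode the chains of C1q, which starts the classical complement pathway and, unlike most complement proteins, is made largely by macrophages rather than hepatocytes. PU.1 is a transcription factor that many macrophage genes need, and glucocorticoids act through a receptor that binds DNA and is present in macrophages as well as hepatocytes.

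The genes lie on 7 chromosomes, here placed by the GENCODE M39 annotation of GRCm39. Clec4f is at chr6:83621524-83633169 on the minus strand, Timd4 at chr11:46701620-46735177 on the plus strand, Vsig4 at chrX:95290807-95337044 on the minus strand, Cd5l at chr3:87265182-87278380 on the plus strand, Marco at chr1:120402267-120432753 on the minus strand and Cd68 at chr11:69555037-69557067 on the minus strand. The C1q genes form a cluster on the minus strand of chromosome 4, with C1qb at chr4:136606009-136613511, C1qc at chr4:136616466-136620376 and C1qa at chr4:136623223-136626161, separated by 2954 and 2846 bases. Of the exon bases of Csf1r, 19.8% lie opposite exons of Hmgxb3, with which it shares 16.9% of its 100-base words. The strand setting of the counting is not given in the sources used here, so reads of Csf1r and Hmgxb3 may have been mixed and the values of Csf1r are uncertain to that extent. Of the C1qc exon bases, 8.64% lie opposite the antisense gene Gm69251, and for C1qb the share is 0.977%.

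Promoter sequences are shown because the genes moved together, to let the letters before their start sites be compared. RefSeq windows of 250 bases before the start site, on GRCm38.p6, were found for 8 of the 10 genes. The letters GAGGAA, the core that PU.1 prefers, were present on either strand in 6 of these 8 windows, against 23.3% of the 32851 windows in the table. Capitals below mark GAGGAA or its reverse complement TTCCTC, and the sequences read 5′ to 3′ on the strand of the gene. C1qb is shown as the C1q gene with the match nearest to its start, 30 bases before it, Vsig4 as the gene with 2 matches (155 and 53 bases before), Cd5l as a gene with a match on the opposite strand (66 bases before), and Clec4f as a window with none. The windows are at chr4:136886201-136886450 (minus strand), chrX:96293439-96293688 (minus), chr3:87357631-87357880 (plus) and chr6:83656117-83656366 (minus).
C1qb: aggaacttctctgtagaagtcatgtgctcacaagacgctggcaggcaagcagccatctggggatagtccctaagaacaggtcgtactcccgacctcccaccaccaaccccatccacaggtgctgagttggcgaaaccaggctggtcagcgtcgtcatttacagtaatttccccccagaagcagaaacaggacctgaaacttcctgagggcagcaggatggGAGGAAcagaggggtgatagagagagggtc
Vsig4: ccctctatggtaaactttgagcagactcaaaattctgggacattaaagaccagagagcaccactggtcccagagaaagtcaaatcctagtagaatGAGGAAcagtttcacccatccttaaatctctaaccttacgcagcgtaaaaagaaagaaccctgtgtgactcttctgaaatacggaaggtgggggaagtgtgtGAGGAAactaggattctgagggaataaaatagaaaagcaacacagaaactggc
Cd5l: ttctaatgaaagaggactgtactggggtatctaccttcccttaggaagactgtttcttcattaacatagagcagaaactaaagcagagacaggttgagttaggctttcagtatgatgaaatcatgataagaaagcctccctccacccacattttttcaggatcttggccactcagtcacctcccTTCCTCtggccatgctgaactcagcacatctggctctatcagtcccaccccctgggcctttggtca
Clec4f: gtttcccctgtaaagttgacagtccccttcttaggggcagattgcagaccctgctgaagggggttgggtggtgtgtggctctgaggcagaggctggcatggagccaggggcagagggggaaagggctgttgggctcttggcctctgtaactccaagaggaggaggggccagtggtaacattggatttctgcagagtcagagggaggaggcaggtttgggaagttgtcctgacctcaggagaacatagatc
Marco, C1qc and Cd68 had 1 match each, 146, 193 and 225 bases before the start, and Timd4 had none. The full palindromic glucocorticoid receptor site, the half-site AGAACA followed after 3 bases by TGTTCT, was in 0 of the 8 windows and in 0.00913% of all windows. The AP-1 site TGANTCA was in 1 of the 8, that of Cd68, and in 6.75% of all, and the C/EBP palindrome TTGCGCAA was in 0 of the 8 and in 0.164% of all. Both palindromes are so rare in such windows that their absence from 8 windows says nothing about these genes. A match of letters does not show that a protein binds there, and the absence of a match concerns these letters in this window only.

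The libraries held 14934926 to 20299999 counts on genes. Levels are given as CPM, counts scaled to a common library size after TMM normalization, and a floor of 3 counts in the shallowest library corresponds to 0.201 CPM. The lowest count of any of the 10 genes in a liver was 24, for Timd4, and the highest 7033, so none was near the floor. Isotype + CORT replicate 3 stood apart from its group in Fkbp5, a direct glucocorticoid target. Fkbp5 was at 67.6 CPM there against 117 to 177 CPM in the other Isotype + CORT livers and 26.1 to 51.1 CPM in Isotype + Vehicle. Its Tsc22d3, another glucocorticoid response gene, lay within the group, at 69.1 CPM against 56.8 to 101 CPM in the others. In Isotype + Vehicle Tsc22d3 was at 75.3 to 162 CPM, so it did not rise under CORT here (log2 fold change -0.67, adjusted p = 0.384 by edgeR). The median correlation of replicate 3 with its group also lay within the group, 0.935 against 0.931 to 0.945. Setting this liver apart therefore rests on Fkbp5. αACBP + Vehicle replicate 5 also stood apart, with 14.05% of its counts on the 20 most abundant genes against 20.03% to 27.7% in the other livers. Members' results for which these livers are named below are given with and without them, and counts of called genes without both.

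Per length of the canonical transcript, the most abundant of the genes in Isotype + Vehicle was C1qa, at 83.1 ± 30.2 CPM per kilobase (SD, n = 5), followed by Clec4f at 76.6 ± 13.8 and Cd5l at 56.3 ± 21.6 CPM per kilobase. C1qc followed at 31.4 ± 10.3, Marco at 23.8 ± 25.4, C1qb at 22.1 ± 7.97 and Vsig4 at 18.2 ± 5.21 CPM per kilobase. Csf1r, at 12.2 ± 2.58, Cd68, at 9.998 ± 2.89, and Timd4, at 7.07 ± 3.67 CPM per kilobase, were the least abundant. Cd5l and C1qc, and Vsig4 and Csf1r, differed by more than the larger of their SDs, and the other neighbours in this order by less. In αACBP + Vehicle, Clec4f stood at 127 ± 26.9 CPM per kilobase, apart from C1qa, then second, at 66.4 ± 24.5 CPM per kilobase.

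**Figure D1:**
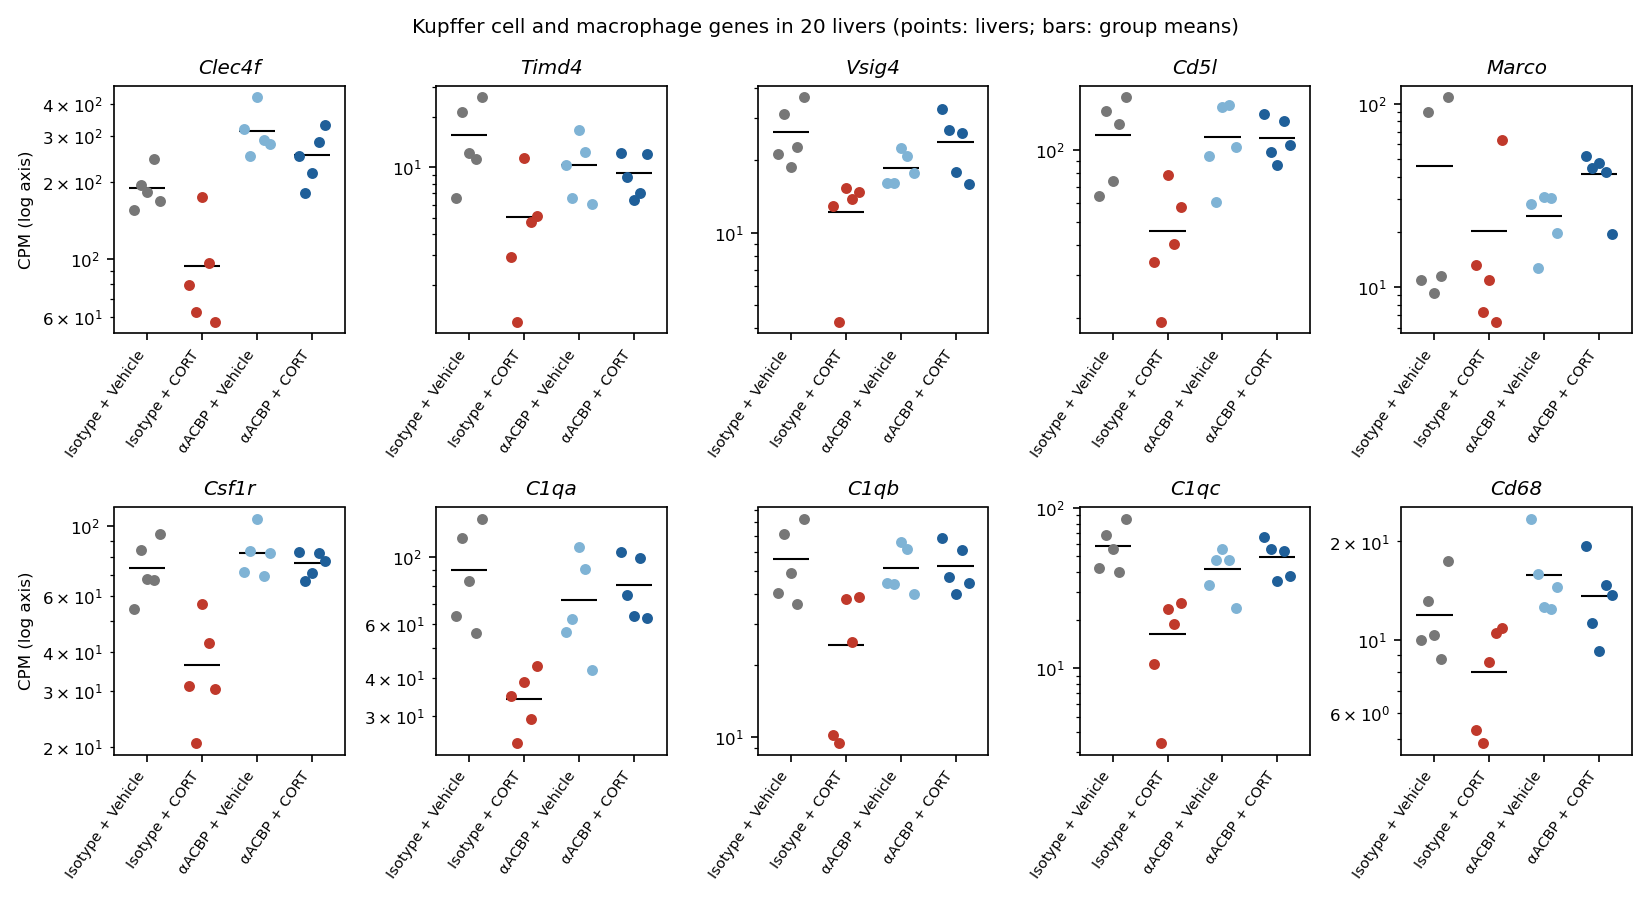
CPM of the 10 genes in each of the 20 livers, on a log axis, with 1 point per liver (replicates 1 to 5 from left to right) and a bar at the arithmetic mean of each group. The Isotype + CORT livers, in red, hold the lowest value of every gene, while the αACBP + CORT livers, in dark blue, lie near the 2 vehicle groups.

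The first comparison asked what CORT did under the isotype antibody. Of the 10 genes, 7 fell (Clec4f, Timd4, Vsig4, Cd5l, Csf1r, C1qa and C1qc). Over all genes tested, 1.43% were called lower and 0.510% higher. All 10 fold changes were negative, with a median of -1.19 on the log2 scale against 0.00 over all genes, of which 49.8% were negative. For 3 genes (Vsig4, C1qa and C1qc) every Isotype + CORT liver lay below every Isotype + Vehicle liver, which was so for 3.02% of all genes.

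C1qa and C1qc were the genes called in every alternative fit. C1qa, the A chain, was at 64.1, 115, 83.2, 56.4 and 133 CPM in Isotype + Vehicle replicates 1 to 5 and at 34.8, 24.4, 38.7, 29.4 and 43.8 CPM in Isotype + CORT. The groups did not overlap, and C1qa fell by 1.40 on the log2 scale (SE 0.25, adjusted p = 0.00182 by edgeR). C1qc was at 42.2, 67.7, 55.5, 39.7 and 85.8 CPM in Isotype + Vehicle and at 10.7, 3.40, 23.3, 19.03 and 25.6 CPM in Isotype + CORT. It had the largest change of the 10, fell by 1.83 on the log2 scale (SE 0.39, adjusted p = 0.0121 by edgeR), and also did not overlap. C1qb was at 40.4, 71.1, 48.8, 36.2 and 82.7 CPM in Isotype + Vehicle and at 10.2, 9.41, 37.9, 25.1 and 38.8 CPM in Isotype + CORT. In C1qb, 3 of the 5 Isotype + CORT livers lay below all Isotype + Vehicle livers, and its log2 fold change of -1.20 (SE 0.34) did not pass (adjusted p = 0.0591 by edgeR).

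Among the surface and secreted markers of Kupffer cells, Clec4f was at 155, 195, 183, 244 and 169 CPM in Isotype + Vehicle and at 79.7, 62.8, 174, 96.9 and 57.3 CPM in Isotype + CORT. Only Isotype + CORT replicate 3 reached the range of the vehicle livers, and Clec4f fell by 1.01 on the log2 scale (SE 0.24, adjusted p = 0.0150 by edgeR), or by 1.35 without that liver. Vsig4 was at 21.3, 31.1, 18.7, 22.8 and 36.6 CPM in Isotype + Vehicle and at 12.9, 4.25, 15.4, 13.8 and 14.7 CPM in Isotype + CORT, without overlap. It fell by 1.10 on the log2 scale (SE 0.27, adjusted p = 0.0197 by edgeR). Cd5l was at 64.0, 144, 73.8, 127 and 165 CPM in Isotype + Vehicle and at 34.1, 19.2, 78.3, 40.4 and 57.6 CPM in Isotype + CORT. It fell by 1.32 on the log2 scale (SE 0.33, adjusted p = 0.0302 by edgeR), again with replicate 3 as the liver that overlapped, and by 1.60 without it. Timd4, the dying-cell receptor, was at 6.56, 21.5, 12.1, 11.3 and 26.2 CPM in Isotype + Vehicle and at 2.94, 1.20, 11.4, 4.76 and 5.16 CPM in Isotype + CORT. Replicate 3 was once more the Isotype + CORT liver within the vehicle range, and Timd4 fell by 1.61 on the log2 scale (SE 0.44, adjusted p = 0.0418 by edgeR), or by 2.15 without that liver. For Clec4f, Cd5l and Timd4 that liver was the highest of its group, so leaving it out had to enlarge the decrease.

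Csf1r, the growth factor receptor, was at 54.7, 84.4, 68.0, 67.5 and 94.3 CPM in Isotype + Vehicle and at 31.2, 20.5, 56.9, 42.8 and 30.5 CPM in Isotype + CORT. It fell by 1.02 on the log2 scale (SE 0.20, adjusted p = 0.00455 by edgeR), with 4 of 5 livers below all vehicle livers. Cd68 was at 10.1, 13.2, 10.4, 8.77 and 17.4 CPM in Isotype + Vehicle and at 5.33, 4.85, 8.60, 10.5 and 10.9 CPM in Isotype + CORT. The groups overlapped, and its log2 fold change of -0.58 (SE 0.27) was the smallest of the 10 and did not pass (adjusted p = 0.297 by edgeR). Marco was at 10.96, 89.4, 9.24, 11.5 and 108 CPM in Isotype + Vehicle and at 13.3, 7.31, 10.9, 6.45 and 63.0 CPM in Isotype + CORT. Within both groups Marco thus had a set of livers near 10 CPM and others many times higher, and its log2 fold change of -1.19 (SE 0.75, adjusted p = 0.515 by edgeR) was not distinguishable from the spread between livers. Its value ranged from -2.28 without Isotype + CORT replicate 5 to -0.61 without Isotype + Vehicle replicate 5.

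**Figure D2:**
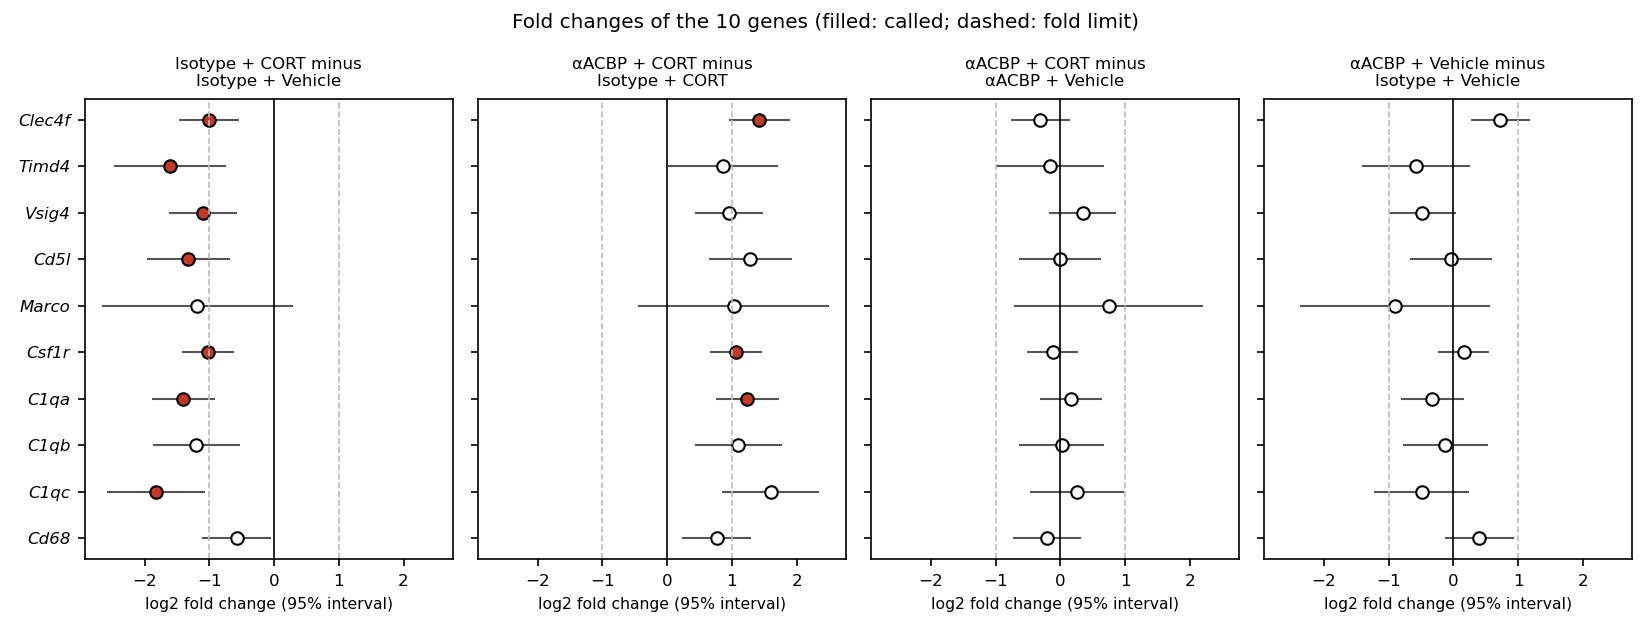
Log2 fold changes of the 10 genes (points) with approximate 95% intervals (lines) in 4 comparisons. Filled points were called and dashed lines mark the fold limit of 1. All 10 points lie left of 0 for CORT under isotype and right of 0 for αACBP under CORT, and none is filled in the other 2 panels.

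The count of genes called under CORT depended on single livers. Without Isotype + Vehicle replicate 2 it was 2; without Isotype + Vehicle replicate 5, Isotype + CORT replicate 1 or Isotype + CORT replicate 2 it was 3; without Isotype + Vehicle replicate 4 it was 4; and without Isotype + CORT replicate 3 it was 8, C1qb being added. A fit of these 2 groups alone called 3 genes, Csf1r, C1qa and C1qc. The sign stayed negative for all 10 genes in each of these fits. The shares of all genes called in them are not given.

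The second comparison asked what αACBP did in mice given CORT, and it used the same Isotype + CORT livers as the first, so the 2 sets of fold changes are not independent. Clec4f, Csf1r and C1qa rose, 3 of the 10, against 0.504% of all genes called higher and 0.0933% called lower. All 10 fold changes were positive, with a median of 1.09 on the log2 scale against 0.01 over all genes. For 7 genes (Clec4f, Vsig4, Cd5l, Csf1r, C1qa, C1qb and C1qc) every αACBP + CORT liver lay above every Isotype + CORT liver, which was so for 1.91% of all genes.

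Clec4f, at 251, 180, 217, 284 and 331 CPM in αACBP + CORT, exceeded all Isotype + CORT livers and rose by 1.42 on the log2 scale (SE 0.24, adjusted p = 0.00275 by edgeR), or by 1.77 without Isotype + CORT replicate 3. Csf1r was at 82.9, 67.1, 71.2, 82.6 and 77.6 CPM in αACBP + CORT, the tightest group of any of the genes. It rose by 1.07 on the log2 scale (SE 0.20, adjusted p = 0.00720 by edgeR). C1qa was at 103, 74.9, 64.0, 98.7 and 62.8 CPM and rose by 1.24 on the log2 scale (SE 0.25, adjusted p = 0.0116 by edgeR). These 3 genes passed with each liver left out in turn, except Csf1r without Isotype + CORT replicate 2, where its log2 fold change was 0.92 and below the fold limit.

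The other C1q and Kupffer cell genes missed the threshold by different margins. C1qc was at 66.2, 55.4, 35.3, 53.8 and 37.4 CPM in αACBP + CORT, with a log2 fold change of 1.60 (SE 0.38, adjusted p = 0.0508 by edgeR). C1qb was at 68.5, 46.9, 40.1, 60.9 and 44.3 CPM, with a log2 fold change of 1.10 (SE 0.34, adjusted p = 0.139 by edgeR). Neither overlapped Isotype + CORT, though the lowest αACBP + CORT value of C1qb was only slightly above the highest of the other group. Cd5l was at 140, 97.5, 86.1, 131 and 105 CPM, with a log2 fold change of 1.28 (SE 0.33, adjusted p = 0.0628 by edgeR). Vsig4 was at 32.6, 26.7, 17.9, 25.9 and 15.9 CPM, with a log2 fold change of 0.96 (SE 0.27, adjusted p = 0.0765 by edgeR). Both were above all Isotype + CORT livers, though Vsig4 only slightly, with a lowest value of 15.9 CPM against a highest of 15.4 CPM. Cd68, at 19.3, 11.3, 9.30, 14.8 and 13.7 CPM, had a log2 fold change of 0.77 (SE 0.27, adjusted p = 0.188 by edgeR). Timd4, at 12.2, 8.82, 6.37, 7.04 and 11.9 CPM, had a log2 fold change of 0.86 (SE 0.43, adjusted p = 0.424 by edgeR), and 1.41 without Isotype + CORT replicate 3 (adjusted p = 0.0758). Marco, at 51.8, 44.4, 47.2, 42.5 and 19.5 CPM, had a log2 fold change of 1.03 (SE 0.75, adjusted p = 0.672 by edgeR), and 2.11 without Isotype + CORT replicate 5. Timd4, Cd68 and Marco overlapped between the groups.

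Leaving out the livers that stand apart, Isotype + CORT replicate 3 and αACBP + Vehicle replicate 5, gave 8 genes lower under CORT and 6 higher with αACBP under CORT, the 6 being Clec4f, Vsig4, Cd5l, Csf1r, C1qa and C1qc. Leaving out Isotype + CORT replicate 3 alone gave 5 in the second comparison. Both alternatives were chosen after seeing the data. Replicate 3 was the highest of its group in 5 of the genes. For those genes leaving it out had to enlarge both differences, so the larger counts are no separate evidence. Without Isotype + CORT replicate 2, the lowest of its group in 8 genes, fewer genes than in the main fit were called lower under CORT. DESeq2 called 8 and 6 genes in the 2 comparisons, and limma voom called 5 and 4. The shares of all genes called in these fits are not given, so their counts cannot be set against those of the main fit.

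The third comparison set CORT against vehicle in mice given αACBP. By edgeR, 0 of the 10 genes were called, 0 had an unadjusted p of 0.05 or less, and DESeq2 and limma voom also called 0; over all genes, 0.212% were called in either direction. The fold changes were split into 5 positive and 5 negative, with a median of 0.01 on the log2 scale. They ran from -0.31 for Clec4f (95% interval -0.77 to 0.15) to 0.75 for Marco (-0.72 to 2.21). For Csf1r the interval was -0.51 to 0.28 and for C1qa -0.32 to 0.64, so decreases as large as their decreases under isotype lay outside the intervals. For C1qc the interval was -0.47 to 0.99, and for Timd4 it was -0.998 to 0.67.

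The interaction, the effect of CORT under αACBP minus that under isotype, tests whether the CORT response differed between the antibodies. It was positive for all 10 genes, with a median of 1.38 on the log2 scale against 0.03 over all genes, of which 52.5% were positive. By edgeR 0 of the 10 were called, against 0.0996% of all genes called higher. At an unadjusted p of 0.05 or less there were 8 of the 10, and the share of all genes at that p is not given. The nearest was C1qa, with an interaction of 1.56 (SE 0.35, adjusted p = 0.0525 by edgeR), followed by Vsig4 at 1.45 (SE 0.38, adjusted p = 0.0923) and C1qc at 2.09 (SE 0.54, adjusted p = 0.103). DESeq2 called 3 of the 10 and limma voom 2, with no share of all genes given for either. The count with 1 liver left out ranged from 0 to 2, with 2 called without αACBP + CORT replicate 5.

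The antibody without CORT was compared in αACBP + Vehicle and Isotype + Vehicle livers. By edgeR, DESeq2 and limma voom 0 of the 10 genes were called, against 1.30% of all genes called in either direction by edgeR, and 1, Clec4f, had an unadjusted p of 0.05 or less. Clec4f was at 319, 252, 424, 290 and 281 CPM in αACBP + Vehicle, above every Isotype + Vehicle liver, which was so for 3.50% of all genes. Its log2 fold change was 0.73 (SE 0.23, adjusted p = 0.0650 by edgeR). The other 9 genes overlapped between the groups. Vsig4, at 16.1, 16.1, 22.5, 20.9 and 17.7 CPM, had a log2 fold change of -0.48 (SE 0.26, adjusted p = 0.305), Timd4, at 6.03 to 16.8 CPM, one of -0.58 (SE 0.43, adjusted p = 0.493), and Marco, at 12.7 to 31.0 CPM, one of -0.90 (SE 0.75, adjusted p = 0.566), all by edgeR. Without Isotype + Vehicle replicate 5 the value was -0.31 for Marco and -0.32 for Timd4, and without Isotype + Vehicle replicate 2 it was -0.52 for Marco. C1qa was at 42.4 to 108 CPM, C1qb at 39.8 to 65.9, C1qc at 23.9 to 55.8, Cd5l at 60.4 to 153, Csf1r at 69.5 to 106 and Cd68 at 12.5 to 23.5 CPM.

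Mice given both αACBP and CORT were also compared with the Isotype + Vehicle mice. The log2 fold changes between them ran from -0.74 for Timd4 to 0.42 for Clec4f, with a median of -0.12. By edgeR 0 were called, 0 had an unadjusted p of 0.05 or less, and DESeq2 and limma voom called 0; over all genes 0.0684% were called. The intervals leave room for differences of moderate size: -0.35 to 0.44 for Csf1r, -0.64 to 0.32 for C1qa, -0.96 to 0.55 for C1qc and -1.58 to 0.09 for Timd4.

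**Figure D3:**
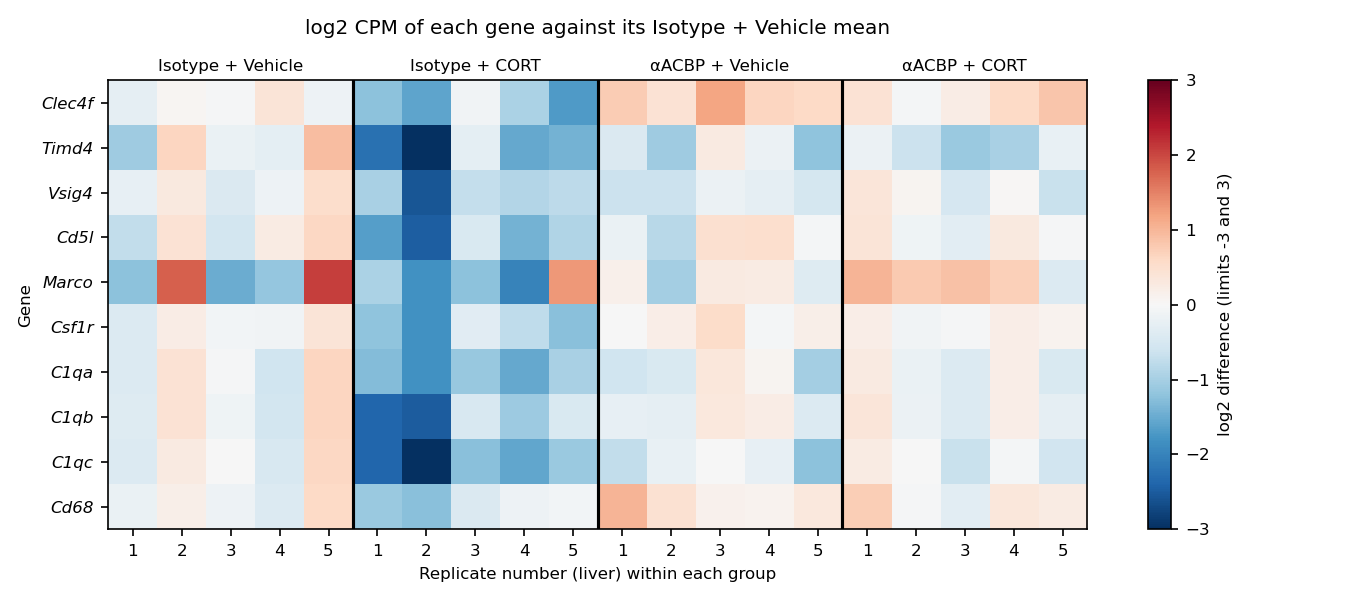
Log2 CPM of each gene (rows) in each liver (columns, by group and replicate) minus the mean log2 CPM of that gene in Isotype + Vehicle; red is higher, blue lower, and colours are limited at -3 and 3. Isotype + CORT replicate 2 is the lowest of its group in 8 of 10 genes, Isotype + CORT replicate 3 is the palest of its group in several genes, and in Isotype + Vehicle Marco spreads most widely of the 10.

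The genes varied together from liver to liver within the groups. Summed over the 10 genes, Isotype + CORT livers ranged from 157 to 456 CPM with a median of 289 CPM, against 470 to 918 CPM (median 625) in Isotype + Vehicle, 602 to 993 CPM (median 698) in αACBP + Vehicle and 594 to 828 CPM (median 719) in αACBP + CORT. No Isotype + CORT liver reached the lowest sum of another group. Isotype + Vehicle replicate 5 was the highest of its group in 9 of 10 genes, Isotype + CORT replicate 2 the lowest in 8, αACBP + Vehicle replicate 3 the highest in 8 and αACBP + CORT replicate 1 the highest in 9. With group means subtracted, the median Pearson correlation over the 45 pairs of genes was 0.66 across the 20 livers, given as a description, since the genes share their libraries. C1qb and C1qc were the closest pair (r = 0.88), and Clec4f and Marco the least alike (r = -0.23). Clec4f had the lowest median correlation with the other genes, 0.26, and Marco and Cd68 followed with 0.49 each, while the other 7 genes lay between 0.67 and 0.75.

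Ratios of counts within a liver do not depend on the normalization, and 8 ratios were compared in 4 comparisons by exact two-sided permutation tests, for which 0.00794 is the smallest possible p. None of the 32 passed after Benjamini-Hochberg adjustment. With 32 tests and this smallest p, a single ratio could not pass however far apart its groups lay. The lack of a pass therefore does not show that the ratios were alike. The ratio of Vsig4 to Clec4f was lower in all 5 αACBP + Vehicle livers than in any Isotype + Vehicle liver, by 1.17 on the log2 scale (difference -1.17, exact p = 0.00794, adjusted p = 0.190). Its log2 values were -2.86, -2.65, -3.29, -3.42 and -2.20 in Isotype + Vehicle and -4.30, -3.97, -4.24, -3.79 and -3.99 in αACBP + Vehicle. Under the same comparison the ratio of Timd4 to Clec4f differed by -1.24 (exact p = 0.0159, adjusted p = 0.190) and that of Csf1r to Clec4f by -0.55 (exact p = 0.0238, adjusted p = 0.190), both with overlap. Between Isotype + CORT and Isotype + Vehicle the ratios of Vsig4, Timd4 and Csf1r to Clec4f differed by -0.07 (exact p = 0.913), -0.68 (exact p = 0.222) and 0.03 (exact p = 0.881). Whether these differences were unlike those with αACBP was not tested.

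The C1q chains kept a nearly fixed ratio in Isotype + Vehicle livers, where the log2 ratio of C1qa to C1qb was 0.67, 0.69, 0.77, 0.64 and 0.68. In Isotype + CORT it was 1.77, 1.37, 0.03, 0.23 and 0.17, so replicates 1 and 2, with 149 and 188 counts of C1qb, lay above and the other 3 below all vehicle livers. The SD of this ratio was 0.05 in Isotype + Vehicle, 0.80 in Isotype + CORT, 0.23 in αACBP + Vehicle and 0.08 in αACBP + CORT; the difference between these SDs was not tested. The log2 ratio of C1qc to C1qb was 0.07 ± 0.10 (SD, n = 5) in Isotype + Vehicle and -0.62 ± 0.56 in Isotype + CORT, a difference of -0.69 (exact permutation p = 0.0317, adjusted p = 0.190).

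**Figure D4:**
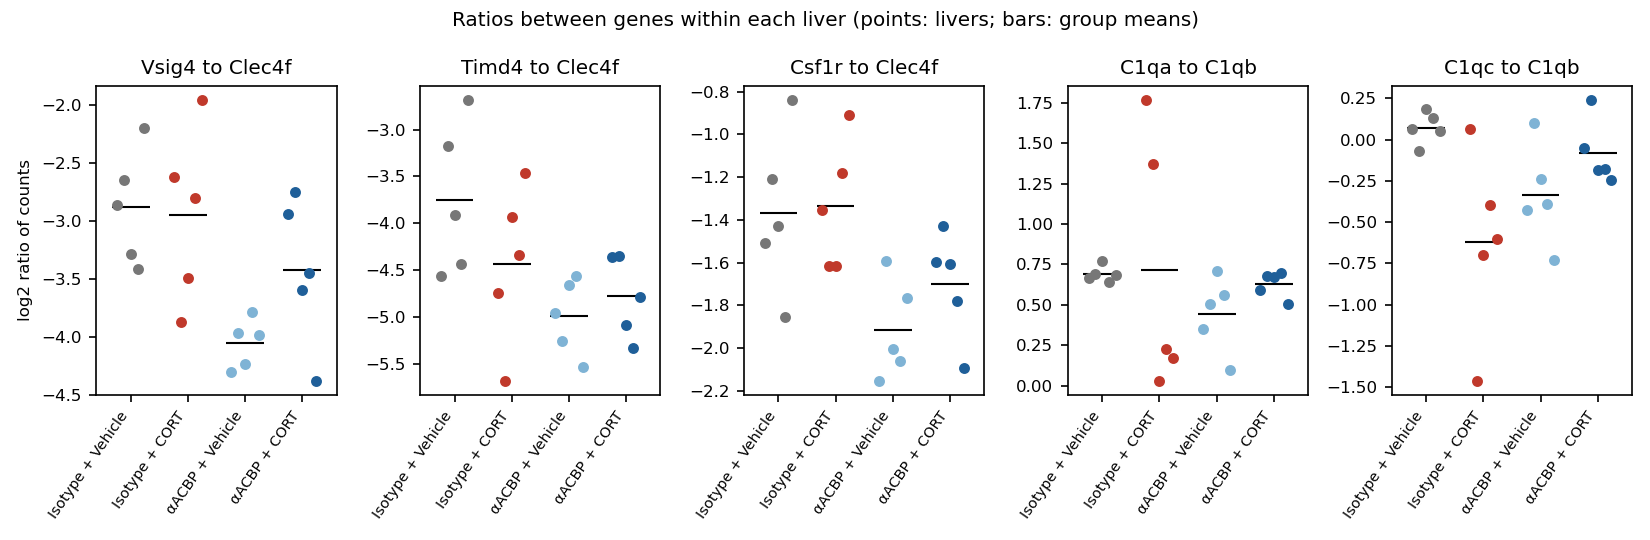
Log2 ratios of counts between pairs of the genes in each liver (points), with bars at the group means. The ratio of Vsig4 to Clec4f in αACBP + Vehicle lies below all Isotype + Vehicle livers, and the ratio of C1qa to C1qb spreads most widely in Isotype + CORT.

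Among 15 further Kupffer cell genes, 14 had negative fold changes under CORT with isotype and 14 positive ones with αACBP under CORT. Of the 15, 5 fell under CORT with isotype (Folr2, Spic, C6, Cfp and Slc11a1), with a median log2 fold change of -0.91, and 5 rose with αACBP under CORT (Folr2, Id3, C6, Cfp and Slc11a1), with a median of 0.96. The exception in both was Slc40a1, the iron exporter ferroportin, with log2 fold changes of 0.62 (SE 0.19, adjusted p = 0.0744 by edgeR) and -0.19 (adjusted p = 0.797). These names are given because the counts are small, after their values were seen, except C6 and Cfp, the 2 with the lowest p. C6, a late complement component, was at 18.2 ± 5.94 CPM (SD, n = 5) in Isotype + Vehicle, 7.40 ± 2.90 in Isotype + CORT and 18.4 ± 2.87 in αACBP + CORT. It fell by 1.30 on the log2 scale (SE 0.25, adjusted p = 0.00319 by edgeR) and rose by 1.31 (SE 0.25, adjusted p = 0.00720). Cfp, properdin of the alternative complement pathway, fell by 1.27 on the log2 scale (SE 0.25, adjusted p = 0.00518) and rose by 1.34 (SE 0.25, adjusted p = 0.00720), both by edgeR. Id3, a regulator needed for Kupffer cells to develop, which other liver cells also express, was the only gene of this list called for the antibody without CORT, at -1.05 (adjusted p = 0.0258 by edgeR), for CORT under αACBP, at 1.62 (adjusted p = 0.0101), and for the interaction, at 2.54 (SE 0.38, adjusted p = 0.00281).

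Of 15 genes shared by macrophages in general, 4 fell under CORT with isotype (Ctss, Tyrobp, Mpeg1 and Cybb; median -1.41) and 2 rose with αACBP under CORT (Mpeg1 and Cybb; median 1.08). Mpeg1, a pore-forming protein of phagocytes, was at 58.5 ± 8.59 CPM in Isotype + Vehicle, 18.3 ± 4.62 in Isotype + CORT, 47.6 ± 12.0 in αACBP + Vehicle and 44.3 ± 4.10 in αACBP + CORT (SD, n = 5 each). It fell by 1.67 on the log2 scale (SE 0.19, adjusted p = 2.98e-05) and rose by 1.27 (SE 0.19, adjusted p = 0.00165), and its interaction of 1.57 (SE 0.27, adjusted p = 0.00655) passed, all by edgeR. Cybb, the NADPH oxidase subunit of phagocytes, fell by 1.73 (SE 0.37, adjusted p = 0.00786) and rose by 1.45 (SE 0.37, adjusted p = 0.0486) on the log2 scale by edgeR.

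Of 12 genes of monocytes and recruited macrophages, 9 were tested and 0 were called in either comparison (medians -0.94 and 0.41). Of 12 genes of the CSF1 receptor axis, 0 were called under CORT with isotype (median -0.85) and 1 rose with αACBP under CORT, Csf2ra, a subunit of the GM-CSF receptor, by 1.25 on the log2 scale (SE 0.30, adjusted p = 0.0385 by edgeR). The ligand Csf1 was at 22.7 ± 5.08 CPM in Isotype + Vehicle and 17.6 ± 7.91 in Isotype + CORT (adjusted p = 0.526), and Il34 at 3.29 ± 1.67 and 1.61 ± 0.588 CPM (adjusted p = 0.297), both by edgeR and named for their role as ligands. A list of 12 partners of C1q held components of the classical complement pathway, which hepatocytes make in large part, and also C1qbp, Calr, Cr1l and Cd93. Of these 12 genes, 10 were tested and 0 were called in either comparison (medians 0.03 and -0.03). C1s1, the protease that C1q activates, was at 568 ± 43.1 CPM in Isotype + Vehicle and 871 ± 143 in Isotype + CORT, a log2 fold change of 0.62 (SE 0.16, adjusted p = 0.0344 by edgeR) that was below the fold limit. Of 14 genes for the uptake of dying cells, 1 fell under CORT with isotype, Dock2, by 2.01 on the log2 scale (SE 0.48, adjusted p = 0.0166 by edgeR), and 0 were called with αACBP under CORT (medians -0.14 and 0.07). Of 12 lysosomal genes 0 were called in either comparison (medians 0.00 and -0.09), although Cd68 is a protein of that compartment.

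**Figure D5:**
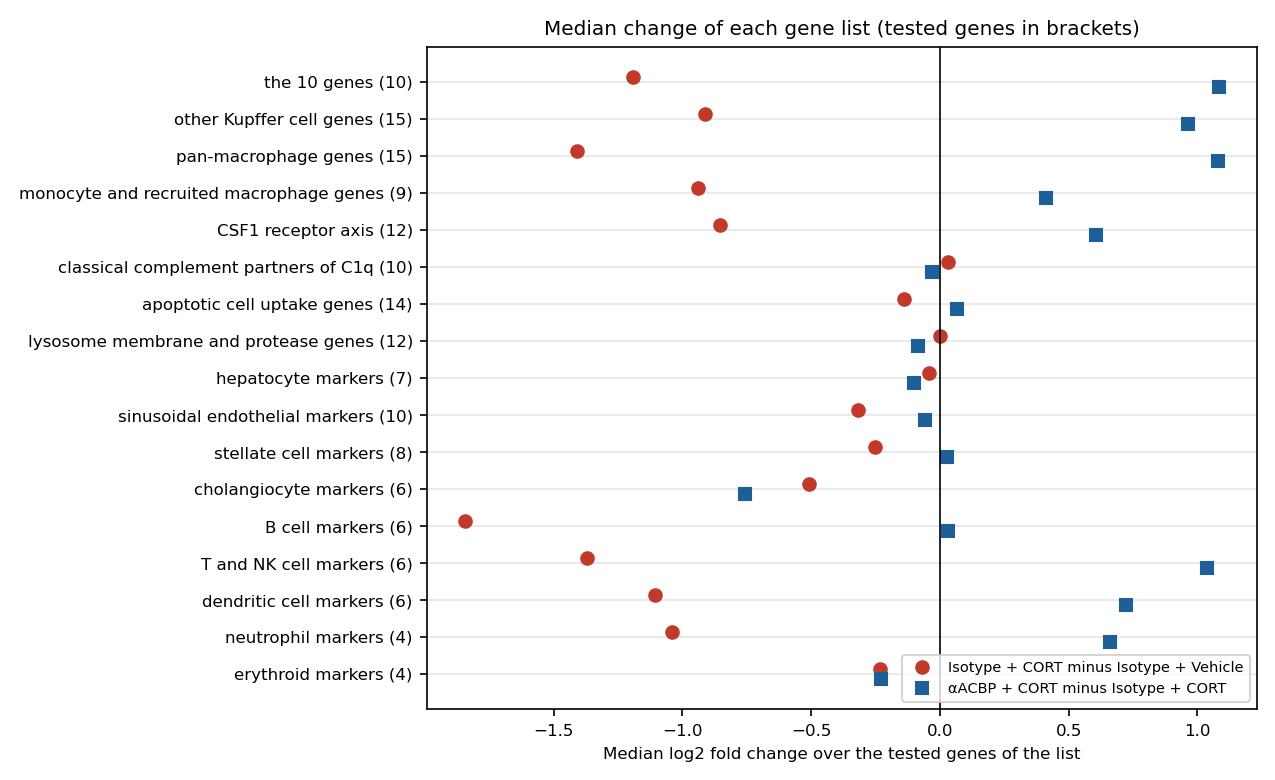
Median log2 fold change over the tested genes of each list (number in brackets), for CORT under isotype (circles) and αACBP under CORT (squares), which share the Isotype + CORT livers. The 10 genes, the other Kupffer cell genes and the pan-macrophage genes lie left of -0.9 and right of 0.9, as do the T and NK cell markers; B cell, dendritic cell, neutrophil and monocyte lists lie left of -0.9 for CORT under isotype only, and hepatocyte, endothelial and stellate cell lists lie within 0.4 of 0.

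Where a list had 0 called by edgeR under CORT with isotype, the count at an unadjusted p with the same fold limit was 3 for monocyte and recruited macrophage genes, 2 for the CSF1 receptor axis, 4 for B cells, 2 for T and NK cells, 2 for dendritic cells and 0 for the others. DESeq2 called 1 T and NK cell and 1 dendritic cell marker, and limma voom 0. The lists with 0 called by edgeR with αACBP under CORT were treated alike. Their unadjusted count was 1 each for uptake of dying cells, T and NK cells, dendritic cells, neutrophils and stellate cells. It was 0 for the others. In these lists DESeq2 called 1 stellate cell marker and limma voom 0. The CSF1 receptor axis, with 1 called, is not among them. In it Csf2rb, Il34 and Socs1 also passed the unadjusted p and the fold limit by edgeR, and are named after their values were seen. The shares of all genes at an unadjusted p or by these tools are not given.

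Markers of other cell types were examined in the same comparisons, and their part in the results was not tested. Under CORT with isotype, 0 of 7 hepatocyte markers, 0 of 10 sinusoidal endothelial markers and 0 of 8 stellate cell markers were called, with medians of -0.04, -0.32 and -0.25 on the log2 scale. Of 6 cholangiocyte and 4 tested erythroid markers 0 were called (medians -0.51 and -0.23), and of 10 glucocorticoid response genes 1 rose, Fkbp5, by 1.70 on the log2 scale (SE 0.26, adjusted p = 0.000722 by edgeR). Their summed levels overlapped between the groups: hepatocyte markers ranged from 71484 to 126103 CPM in Isotype + Vehicle and from 87665 to 148458 CPM in Isotype + CORT, endothelial markers from 479 to 633 and from 445 to 516 CPM, and stellate cell markers from 390 to 528 and from 411 to 482 CPM. Lymphoid and other myeloid lists had negative medians, with 0 of 6 B cell markers called (median -1.84, summed 17.2 to 31.1 CPM in Isotype + Vehicle and 1.74 to 14.8 CPM in Isotype + CORT), 0 of 6 tested T and NK cell markers called (median -1.37, 6.20 to 11.4 and 0.516 to 3.69 CPM), 0 of 6 dendritic cell markers called (median -1.11, 24.4 to 39.6 and 18.9 to 30.5 CPM) and 1 of 4 tested neutrophil markers, Csf3r, called (median -1.04, 13.2 to 23.4 and 6.26 to 12.7 CPM). The summed dendritic cell markers overlapped between the groups, and the other sums in the last sentence did not. With αACBP under CORT 0 markers of these types were called, and the B cell median was 0.03 where the T and NK cell median was 1.04, the dendritic 0.72 and the neutrophil 0.66. In αACBP + CORT the B cell markers summed to 3.28 to 26.2 CPM with a median of 5.91 CPM, against a median of 3.95 CPM in Isotype + CORT.

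The genes whose levels followed the 10 most closely were sought among 12059 genes with a mean of at least 1 CPM, by Pearson correlation with the mean profile of the 10 over the 20 livers. They were Ctss (r = 0.95), Cfp (0.94), Cd52 (0.93), Sdc3 (0.92) and Tmsb4x (0.92). With group means subtracted the closest were Ctss (0.90), Tmsb4x (0.88), Sdc3 (0.85), Cfp (0.84) and Tyrobp (0.84). Ctss encodes the protease cathepsin S of antigen-presenting cells and Tyrobp an adaptor of myeloid receptors. These correlations are descriptions over livers that share groups and libraries.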

How the data were processed

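Liver RNA of 20 mice was sequenced as paired reads of 150 bases. The authors aligned them with HISAT2 2.2.1, counted them per gene with HTSeq 2.0.2 and deposited raw counts, 1 column per liver, which were assigned to mice by column name. The labels name mm10 and the study's methods GRCm39 as the genome build; the annotation release and strand setting are not given in the sources used here. Pairs on no gene, 42.3% to 45.2% of the total, were left out of library sizes.

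The main test was edgeR 4.0.16's quasi-likelihood test (R 4.3.3; TMM, robust, filterByExpr) in 1 model of 4 groups, with Benjamini-Hochberg adjustment over 16071 genes, after testing on simulated data. SEs are those implied by the F statistic. Alternatives used DESeq2 1.42.0, limma 3.58.1, other scalings and filters, single groups and left-out livers. Shares over all genes are those of the main fit, and none is given for the alternatives or for an unadjusted p. Ratios had 0.5 counts added. The genes named were the 10, the 2 of each other list with the lowest p under CORT with isotype, and the 5 most correlated, beside those said to be chosen otherwise. The 10 genes and all lists were chosen with earlier results of these data known. Gene positions are from GENCODE M39, which held 91.4% of the table's identifiers, and are not comparable with the GRCm38.p6 promoter windows. Numbered livers are separate mice, and no 2 of a group agreed within sampling noise.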

Additional observations from a re-analysis of the deposited data

Results flagged for a closer look

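Within the groups of 5, a liver whose gap to its nearest neighbour exceeded Dixon's 95% limit was found in 3 of 40 combinations of gene and group, or 7.5%, where chance gives about 5%. Vsig4 was at 4.25 CPM in Isotype + CORT replicate 2, and the next liver of that group was at 12.9 CPM. Marco was at 63.0 CPM in Isotype + CORT replicate 5, and the next liver was at 13.3 CPM. Marco was at 19.5 CPM in αACBP + CORT replicate 5, and the next liver was at 42.5 CPM.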

How the results depend on the processing

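In 400 checks of single genes, covering CORT under isotype and αACBP under CORT, 0 changes of sign were found. The checks without the fold limit and at an unadjusted p reused the main fit, so their signs could not change. Counts of called genes among the 10 moved more, and the shares of all genes called in the same fits are not given. The counts at an unadjusted p kept the fold limit of 1. For CORT under isotype 7 became 3 in a fit of only the groups compared, and 2 to 8 with 1 liver left out. For αACBP under CORT 3 became 6 by DESeq2, 6 at an unadjusted p, 6 without the 2 livers that stand apart, an alternative chosen after seeing the data, and 3 to 5 with 1 liver left out. For the interaction 0 became 3 by DESeq2, 2 by limma voom, 1 without the filter on low counts, 6 at an unadjusted p and 0 to 2 with 1 liver left out. The cause was not tested.

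Small fold changes of the other comparisons changed sign. For CORT under αACBP, C1qb became -0.064 with library sizes that leave out the 20 most abundant genes and -0.056 without the 2 livers that stand apart, and Cd5l became 0.037 by limma voom. For αACBP under vehicle, Cd5l became 0.023 with those library sizes and 0.062 by limma voom. Between αACBP + CORT and Isotype + Vehicle, Cd5l became 0.099 and Marco 0.37 by limma voom.

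The replicate numbers mark different mice, and over 30 pairs of same-numbered livers the correlation of deviations from group means ran from -0.14 to 0.14, with 2 over 0.1, so they do not pair the samples. With the replicate number as a block, the calls were 7 and 3 as before, Cd5l for CORT under αACBP became 0.069 and Marco between αACBP + CORT and Isotype + Vehicle became 0.41.

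With 1 liver left out, the log2 fold change for CORT under αACBP ran from -0.091 to 0.13 for C1qb, -0.16 to 0.14 for Cd5l and -0.31 to 0.079 for Timd4. For αACBP under vehicle it ran from -0.25 to 0.055 for C1qb and -0.19 to 0.13 for Cd5l. Between αACBP + CORT and Isotype + Vehicle it ran from -0.29 to 0.013 for C1qa, -0.22 to 0.079 for C1qb, -0.19 to 0.12 for Cd5l, -0.042 to 0.15 for Csf1r, -0.43 to 0.43 for Marco and -0.27 to 0.012 for Vsig4. Log2 ratio differences under CORT with isotype ran from -0.24 to 0.20 for C1qa to C1qb, -0.090 to 0.16 for Csf1r to Clec4f, -0.54 to 0.73 for Marco to Clec4f and -0.32 to 0.16 for Vsig4 to Clec4f. With αACBP under CORT they ran from -0.26 to 0.18 for C1qa to C1qb, -0.26 to 0.17 for Cd5l to Clec4f and -0.30 to 0.73 for Marco to Clec4f, and for CORT under αACBP from -0.27 to 0.089 for Cd68 to Csf1r.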

Other observations

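Lysosomal genes outside the 10 were also compared for the antibody without CORT. Of 12 genes for lysosomal membrane proteins and enzymes, which many liver cells express, 11 had negative fold changes, with a median of -0.44 on the log2 scale. By edgeR 0 were called, none reaching the fold limit, while 5 had an unadjusted p of 0.05 or less. The share of all genes at that p is not given. Ctsl, Lamp2 and Lipa passed the adjusted p alone, and all 3 are named after their values were seen. Ctsl, the protease cathepsin L, was at 465 ± 128 CPM (SD, n = 5) in Isotype + Vehicle and 234 ± 60.3 CPM in αACBP + Vehicle, a log2 fold change of -0.99 (SE 0.24, adjusted p = 0.0194 by edgeR). Lamp2, a lysosomal membrane protein, had a log2 fold change of -0.64 (SE 0.18, adjusted p = 0.0333) and Lipa, the acid lipase, one of -0.71 (SE 0.20, adjusted p = 0.0350), both by edgeR. In the same comparison Cd68 was at a log2 fold change of 0.40 (SE 0.27, adjusted p = 0.434 by edgeR). Without αACBP + Vehicle replicate 5, a liver that stands apart and has the lowest summed level of these genes (1418 CPM), an alternative chosen after seeing the data, 10 of 12 were negative with a median of -0.38, and 0 of the 12 passed the adjusted p by edgeR, 4 having an unadjusted p of 0.05 or less. Ctsl was then at -0.89 (adjusted p = 0.0555), Lamp2 at -0.62 (adjusted p = 0.0674) and Lipa at -0.72 (adjusted p = 0.0652), all by edgeR. With all livers, 6 of 7 hepatocyte markers were also negative for the antibody without CORT (median -0.40, 0 called by edgeR), and their part in the lysosomal values was not tested. For CORT under αACBP 11 of the 12 lysosomal genes were positive, with a median of 0.28 and 0 called by edgeR, in a comparison that shares the αACBP + Vehicle livers.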
